A study of Homo sapiens with 26 samples.

Results

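The anaphase-promoting complex, or APC/C, and the pair of proteins it acts on at anaphase, securin and separase, were followed through 10 genes in ZR751 breast tumors. The genes were taken by name from the table of TPM values, 10 of the 30331 named genes. No measured value entered the rule, but the list was chosen with earlier results of these data known. They comprise 7 regulators and targets (CDC20, FZR1, UBE2C, UBE2S, FBXO5, PTTG1 and ESPL1) and 3 core subunits (CDC27, CDC16 and CDC23). All 10 passed the filter on low values, a mean of at least 1 TPM in at least 3 mice, as did 14079 genes in all.

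ZR751 is an estrogen receptor positive, HER2-negative breast cancer cell line, grown here under the skin of female NSG mice, a strain without mature lymphocytes. Resistant tumors (5 mice) had received atirmociclib (PF-07220060), which inhibits CDK4, a kinase of the G1 phase, for 84 to 91 days, with a time label of 2040 hours, in a separate study. Sensitive tumors (3 mice) had received the same drug for 3 days, and vehicle tumors (5 mice) had received vehicle, labelled DMSO, for 3 days. Oral doses of 60 mg/kg were given 2 times daily, spaced by 7 hours, to mice whose tumors averaged 150 mm3 at the start, and the 3-day tumors were taken 3 hours after the last dose. No vehicle mice of the separate study are among the samples, so wherever resistant tumors are compared, treatment length, study and resistance cannot be told apart. All tumors come from 1 cell line. Each mouse gave 2 libraries, A and B, which were averaged.

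The APC/C is a large ubiquitin ligase that marks proteins for destruction in mitosis and G1. CDC27, CDC16 and CDC23 are structural subunits built of repeats that form the arch to which its activators bind. CDC20 activates it during mitosis and FZR1, also called CDH1, from late mitosis through G1. The conjugating enzyme UBE2C starts ubiquitin chains on its substrates, and UBE2S lengthens them. FBXO5, also called EMI1, inhibits the complex in S and G2 phase. When the APC/C with CDC20 destroys securin (PTTG1), the protease separase (ESPL1) is freed to cut the cohesin ring that holds sister chromatids together. Several of these regulators are themselves substrates of the complex and are made mainly in G2 and mitosis, while the core subunits are made throughout the cycle.

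In the deposited unit, TPM, a gene's reads are scaled by transcript length and to a fixed library total, so levels can be set beside each other between genes. Depth is unknown. Changes are differences in mean log2(TPM + 1) relative to the median change of all tested genes, which was -0.07 between sensitive and vehicle, -0.05 between resistant and sensitive and -0.14 between resistant and vehicle tumors. Their SE and adjusted p come from limma as fitted, before that median was taken off, and the added 1 understates the change of genes at a few TPM. Genes with an adjusted p under 0.05 count as called. All 10 luminal epithelial markers passed the filter, with summed levels of 16071 to 19645 TPM in resistant, 13264 to 14727 TPM in sensitive and 11306 to 19087 TPM in vehicle tumors. Of 9 leukocyte markers 5 passed, with sums of 9.05 to 16.0 TPM in resistant, 6.76 to 9.32 TPM in sensitive and 4.40 to 8.08 TPM in vehicle tumors; PTPRC, CD3E, CD3D and MS4A1 stayed under 0.1 TPM. Of 9 fibroblast markers COL1A1 alone passed, with sums of 4.58 to 10.5 TPM in resistant, 5.76 to 8.36 TPM in sensitive and 7.81 to 13.3 TPM in vehicle tumors, and of 6 endothelial markers none did. The leukocyte sum was higher in every resistant than in every vehicle tumor. So were CD68 (3.765 to 10.15 against 1.645 to 3.315 TPM) and LYZ (1.85 to 4.65 against 0.215 to 1.135 TPM). CD14 and ITGAM overlapped between these groups, and CSF1R was lower in resistant (0 to 0.2 TPM) than in sensitive tumors (0.975 to 1.66 TPM). The part of this sum in the results was not tested.

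The regulators and the core subunits differed in how far they moved. After 3 days of drug, 6 of the 7 regulators were lower than in vehicle tumors, by 1.71 to 4.57 on the log2 scale, while no core subunit moved by more than 0.23. In resistant tumors 5 of those 6 regulators were higher than in sensitive tumors, but all 7 were lower than in vehicle tumors, or 6 with either scaling alternative (median-of-ratios or quantile), which ended the call of FZR1. Mean levels of the 6 that fell at 3 days reached 13.7% to 36.9% of the vehicle mean in resistant tumors and 3.46% to 24.1% in sensitive tumors. FBXO5 was the regulator that fell at 3 days and was not called higher in resistant tumors. As these are bulk samples, fewer dividing cells and less RNA per cell cannot be told apart.

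Counted against all tested genes, 8 of the 10 members were called lower in sensitive than in vehicle tumors, where 12.6% of all genes were, and none higher, where 3.16% of all genes were. That count was 6, the 6 regulators alone, with either scaling, with A libraries alone, with the compared groups alone and without mouse 1-9, 6-5 or 6-6. In resistant versus sensitive tumors 5 members were called higher, against 9.56% of all genes, and none lower, against 11.6% of all genes. In resistant versus vehicle tumors 9 members were called lower, against 32.5% of all genes, and none higher, against 11.5%; with either scaling 7 were, as FZR1 and CDC16 lost their calls. The groups did not overlap for 9 of 10 members in sensitive versus vehicle tumors (21.7% of all genes), for 5 in resistant versus sensitive (30.4% of all genes) and for 8 in resistant versus vehicle (27.3% of all genes). Without mouse 6-5, the calls of CDC20 and ESPL1 in resistant versus sensitive tumors ended and 3 were left.

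**Figure D1:**
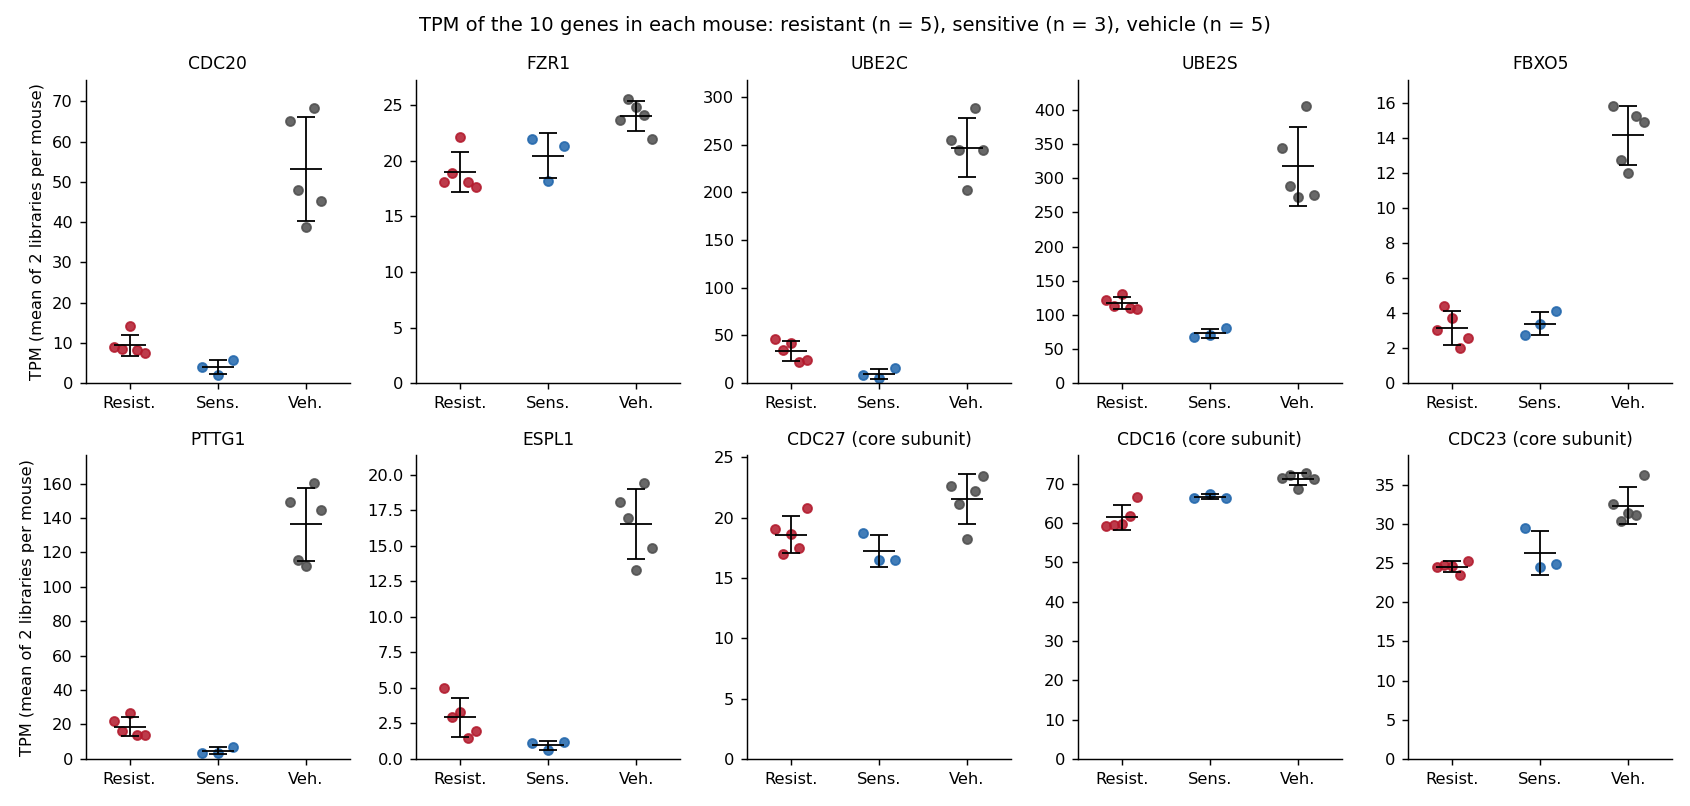
TPM of each gene in each mouse (points, mean of libraries A and B), with the group mean (long bar) and SD (whiskers), for resistant, sensitive and vehicle tumors; each panel has its own linear axis from 0. CDC20, UBE2C, UBE2S, PTTG1 and ESPL1 take 3 separate levels with sensitive tumors lowest, FBXO5 is at 3.15 TPM in resistant, 3.41 TPM in sensitive and 14.1 TPM in vehicle tumors on average, and FZR1 and the core subunits lie within a narrow band.

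Promoter sequences are shown for CDC20, UBE2S, PTTG1 and ESPL1, which were lower in sensitive than in vehicle and higher in resistant than in sensitive tumors, for FBXO5, which was lower in both treated groups but not called between them, and for CDC27, a core subunit that moved little. RefSeq sequences on GRCh38.p14 covering 250 bases before to 50 bases after the start were matched for 9 members, with 12 starts in all; UBE2C had none in the table. Each was searched on both strands for the cell cycle homology region, or CHR (TTTGAA or TTCGAA), for CCAAT and for 4 E2F forms (TTTCCCGC or TTTGGCGC or TTTCGCGC or TTTGCCGC). As background, the CHR is a known binding site of the MuvB complexes that act on genes of G2 and mitosis, and CCAAT is bound by NF-Y. The 150 bases before the start are printed 5′ to 3′ on the gene's strand, with CHR and CCAAT matches of either strand in capitals; a reverse match reads TTCAAA or ATTGG, and CCAATTGG is a forward and a reverse match that overlap.
CDC20 (chr1:43358831-43358980, plus strand): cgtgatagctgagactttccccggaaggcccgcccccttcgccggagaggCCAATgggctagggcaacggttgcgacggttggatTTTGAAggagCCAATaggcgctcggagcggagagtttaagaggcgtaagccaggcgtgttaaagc
UBE2S (chr19:55407789-55407938, minus strand): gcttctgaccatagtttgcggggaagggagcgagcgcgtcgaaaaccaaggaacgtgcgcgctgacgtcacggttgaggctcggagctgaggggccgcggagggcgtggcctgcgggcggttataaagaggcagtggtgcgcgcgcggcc
PTTG1, first start (chr5:160421705-160421854, plus strand): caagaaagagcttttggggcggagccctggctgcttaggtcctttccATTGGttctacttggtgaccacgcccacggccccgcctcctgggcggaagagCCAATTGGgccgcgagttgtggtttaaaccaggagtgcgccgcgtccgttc
ESPL1 (chr12:53268149-53268298, plus strand): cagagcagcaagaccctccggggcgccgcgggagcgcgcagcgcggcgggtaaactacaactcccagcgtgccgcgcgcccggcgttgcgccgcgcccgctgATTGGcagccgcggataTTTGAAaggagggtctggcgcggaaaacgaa
FBXO5, first start (chr6:152983042-152983191, minus strand): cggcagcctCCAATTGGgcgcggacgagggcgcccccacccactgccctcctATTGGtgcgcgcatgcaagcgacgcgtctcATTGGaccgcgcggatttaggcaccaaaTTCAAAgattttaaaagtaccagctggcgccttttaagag
CDC27 (chr17:47189296-47189445, minus strand): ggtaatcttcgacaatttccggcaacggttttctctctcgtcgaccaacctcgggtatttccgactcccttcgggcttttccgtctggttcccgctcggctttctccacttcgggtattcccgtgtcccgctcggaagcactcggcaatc

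A CHR lies 65 bases before the start of CDC20, 31 before that of ESPL1 and 40 before the first start of FBXO5. Within the same 150 bases, 7.87% of 35116 promoters hold one, and 16.4% of them do in the whole window. CDC20 has a further CHR at 178 bases and FZR1 has one at 226 bases, both outside the printed stretch. CCAAT, in 23.5% of promoters within 150 bases and in 34.6% of whole windows, occurs in CDC20, ESPL1, both starts of PTTG1, the first start of FBXO5 and the core subunit CDC23 within 150 bases. UBE2S, CDC16 and CDC27 have a CCAAT farther out, at 191, 183 and 226 bases. The E2F forms, in 1.8% of promoters within 150 bases and in 3.31% of whole windows, matched in the core subunits CDC16, 74 bases before the start, and CDC23, at 187 bases, both as TTTCCCGC. UBE2S and CDC27 have none of the motifs in the printed stretch. A match is a description of letters and not a measured binding site.

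CDC20, the mitotic activator, and FZR1, the activator of late mitosis and G1, moved by very different amounts. CDC20 (GRCh38 chromosome 1, 43358955 to 43363203) had 8.89, 8.38, 14.1, 8.23 and 7.51 TPM in resistant mice 9-3, 9-6, 9-7, 9-8 and 9-9. It had 4.04, 2.15 and 5.71 TPM in sensitive mice 6-4, 6-5 and 6-6, and 65.1, 47.9, 38.9, 68.5 and 45.4 TPM in vehicle mice 1-2, 1-4, 1-5, 1-6 and 1-9. Sensitive tumors were lowest, resistant tumors lay between, and no group overlapped another. CDC20 changed by -3.43 ± 0.25 in sensitive versus vehicle tumors (limma adjusted p = 3.39e-07), by 1.17 ± 0.25 in resistant versus sensitive tumors (adjusted p = 0.00833) and by -2.24 ± 0.22 in resistant versus vehicle tumors (adjusted p = 4.16e-06). Without mouse 6-5 the change of CDC20 in resistant versus sensitive tumors was 0.87, with an adjusted p of 0.0501; over the other alternatives that p went down to 0.00157. The A and B libraries of mouse 6-5 had 1.22 and 3.08 TPM of CDC20, at 0.88 on the log2 scale the widest gap between libraries of 1 mouse for this gene.

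FZR1 (chromosome 19, 3506273 to 3538330) had 18.1, 18.9, 22.1, 18.1 and 17.7 TPM in the resistant mice, in the same order, 21.9, 18.2 and 21.3 TPM in the sensitive mice and 23.6, 25.5, 24.8, 24.1 and 21.9 TPM in the vehicle mice. Vehicle tumors were highest on average; resistant mouse 9-7 was above the lowest vehicle mouse, 1-9, and sensitive mouse 6-4 was all but equal to it. FZR1 was not called in sensitive versus vehicle tumors (-0.15 ± 0.09, limma adjusted p = 0.119) or in resistant versus sensitive tumors (-0.06 ± 0.09, adjusted p = 0.446). It was called lower in resistant than in vehicle tumors, by a change of -0.19 ± 0.08 (adjusted p = 0.00516), a call lost both after median-of-ratios scaling, at an adjusted p of 0.0751, and after quantile normalization, at 0.149 (lowest over alternatives 0.00175).

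UBE2C and UBE2S, the enzymes that start and lengthen chains on APC/C substrates, both fell at 3 days, UBE2C by more. UBE2C (chromosome 20, 45812576 to 45816957) had 46.4, 34.3, 42.0, 21.8 and 24.3 TPM in resistant mice and 8.46, 5.45 and 15.5 TPM in sensitive mice. Vehicle mice had 255, 244, 202, 289 and 244 TPM. Its mean was thus 13.7% of the vehicle mean in resistant tumors and 3.97% of it in sensitive tumors. The change of UBE2C was -4.56 ± 0.28 in sensitive versus vehicle tumors (limma adjusted p = 7.22e-08), 1.79 ± 0.28 in resistant versus sensitive tumors (adjusted p = 0.00123) and -2.75 ± 0.24 in resistant versus vehicle tumors (adjusted p = 1.85e-06).

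UBE2S (chromosome 19, 55399745 to 55407777) was the most abundant of the 10 genes in every mouse. It had 121, 113, 131, 111 and 109 TPM in resistant mice, 68.2, 70.6 and 80.5 TPM in sensitive mice and 344, 289, 272, 406 and 275 TPM in vehicle mice. The 3 groups again did not overlap, but the resistant mean was 36.9% of the vehicle mean and the sensitive mean 23.0%, larger shares than for UBE2C. Changes of UBE2S were -2.01 ± 0.12 (sensitive versus vehicle, limma adjusted p = 5.21e-08), 0.71 ± 0.12 (resistant versus sensitive, adjusted p = 0.00255) and -1.28 ± 0.10 (resistant versus vehicle, adjusted p = 5.47e-07).

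FBXO5, which inhibits the APC/C outside mitosis, fell at 3 days to a level that resistant tumors shared. FBXO5 (chromosome 6, 152970519 to 152983579) had 3.02, 4.41, 3.75, 2.00 and 2.56 TPM in resistant mice and 2.75, 3.35 and 4.12 TPM in sensitive mice, against 15.8, 12.7, 12.03, 15.3 and 14.9 TPM in vehicle mice. The lowest and the highest of the 8 treated mice were both resistant, and every treated mouse was below every vehicle mouse. The change was -1.71 ± 0.18 for sensitive versus vehicle (limma adjusted p = 8.86e-06) and -1.76 ± 0.15 for resistant versus vehicle (adjusted p = 1.37e-06). Between resistant and sensitive tumors it was -0.06 ± 0.18 (adjusted p = 0.708), and over the 23 alternatives it was called in none, with changes of -0.20 to 0.06.

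PTTG1, securin, and ESPL1, separase, fell together at 3 days and stood between the other groups in resistant tumors. PTTG1 (chromosome 5, 160421822 to 160428744) had 22.3, 16.2, 26.7, 14.0 and 14.2 TPM in resistant mice and 3.56, 3.44 and 7.14 TPM in sensitive mice. In vehicle mice it had 149, 116, 112, 160.1 and 145 TPM. Its sensitive mean was 3.46% of the vehicle mean, the smallest share of the 10 genes. The change of PTTG1 was -4.57 ± 0.23 in sensitive versus vehicle tumors (limma adjusted p = 1.38e-08), 1.86 ± 0.23 in resistant versus sensitive tumors (adjusted p = 3.35e-04) and -2.70 ± 0.20 in resistant versus vehicle tumors (adjusted p = 3.79e-07). The near copies PTTG2 and PTTG3P reached at most 0.435 and 0.385 TPM, and the sources used here do not say how shared reads were counted.

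ESPL1 (chromosome 12, 53268299 to 53293643) had 4.96, 2.96, 3.30, 1.44 and 1.98 TPM in resistant mice, 1.11, 0.605 and 1.17 TPM in sensitive mice and 18.1, 16.9, 13.3, 19.4 and 14.8 TPM in vehicle mice. The groups did not overlap, though resistant mouse 9-8 stood only just above the highest sensitive mouse. ESPL1 changed by -3.08 ± 0.24 in sensitive versus vehicle (limma adjusted p = 4.71e-07), by 0.99 ± 0.24 in resistant versus sensitive (adjusted p = 0.0136) and by -2.08 ± 0.20 in resistant versus vehicle tumors (adjusted p = 4.15e-06). The resistant versus sensitive call ended without mouse 6-5 (0.87, adjusted p = 0.0713; lowest over alternatives 0.00180). At about 1 TPM in sensitive tumors, ESPL1 is where the added 1 matters most among the 10: with an added 0.1 its sensitive versus vehicle change was -3.93.

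The core subunits CDC27, CDC16 and CDC23 stayed within 75.8% to 93.7% of their vehicle means in the resistant and sensitive groups. CDC27 (chromosome 17, 47117703 to 47189422) had 19.0, 16.9, 18.6, 17.5 and 20.8 TPM in resistant mice, 18.7, 16.5 and 16.5 TPM in sensitive mice and 22.6, 21.1, 18.2, 22.2 and 23.5 TPM in vehicle mice, and its groups overlapped in every comparison. It was called lower in sensitive than in vehicle tumors at -0.23 ± 0.10 (limma adjusted p = 0.0455), a call that held in 7 of 23 alternatives (adjusted p = 0.00286 to 0.194). It was lost without mouse 6-5, 6-6, 1-2, 1-4, 1-6, 1-9, 9-3, 9-7 or 9-8. Resistant mice bear on it because all mice share 1 estimate of the spread. It was not called in resistant versus vehicle tumors (-0.07 ± 0.08, adjusted p = 0.0617), except without mouse 9-9 or 1-5, with B libraries alone or with weights per mouse (lowest adjusted p = 0.0161).

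CDC16 (chromosome 13, 114234887 to 114272723) had 59.3, 59.5, 59.6, 61.9 and 66.7 TPM in resistant mice, 66.3, 67.5 and 66.4 TPM in sensitive mice and 71.5, 72.2, 68.6, 72.7 and 71.2 TPM in vehicle mice. Every vehicle mouse was above every treated mouse, by a small margin. The change relative to all genes was -0.02 ± 0.06 in sensitive versus vehicle tumors (limma adjusted p = 0.288) and -0.08 ± 0.05 in resistant versus vehicle tumors (adjusted p = 0.00405). The second was called, but not after median-of-ratios scaling, at an adjusted p of 0.390, or quantile normalization, at 0.181 (lowest over alternatives 0.00170). CDC23 (chromosome 5, 138187648 to 138213343) had 24.4, 24.8, 24.7, 23.4 and 25.3 TPM in resistant mice, 29.4, 24.5 and 24.9 TPM in sensitive mice and 32.6, 30.4, 31.4, 31.1 and 36.2 TPM in vehicle mice. Vehicle tumors were above both treated groups for CDC23 without overlap. Its change was -0.25 ± 0.07 in resistant versus vehicle tumors (adjusted p = 7.23e-04), called in 23 of 23 alternatives, and -0.22 ± 0.08 in sensitive versus vehicle tumors (adjusted p = 0.0252), called in 16 of 23 but not without mouse 6-5, 6-6 or 1-9 (highest adjusted p = 0.146). No core subunit was called between resistant and sensitive tumors, where the changes were 0.15, -0.07 and -0.05 for CDC27, CDC16 and CDC23 (adjusted p = 0.473, 0.160 and 0.433).

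**Figure D2:**
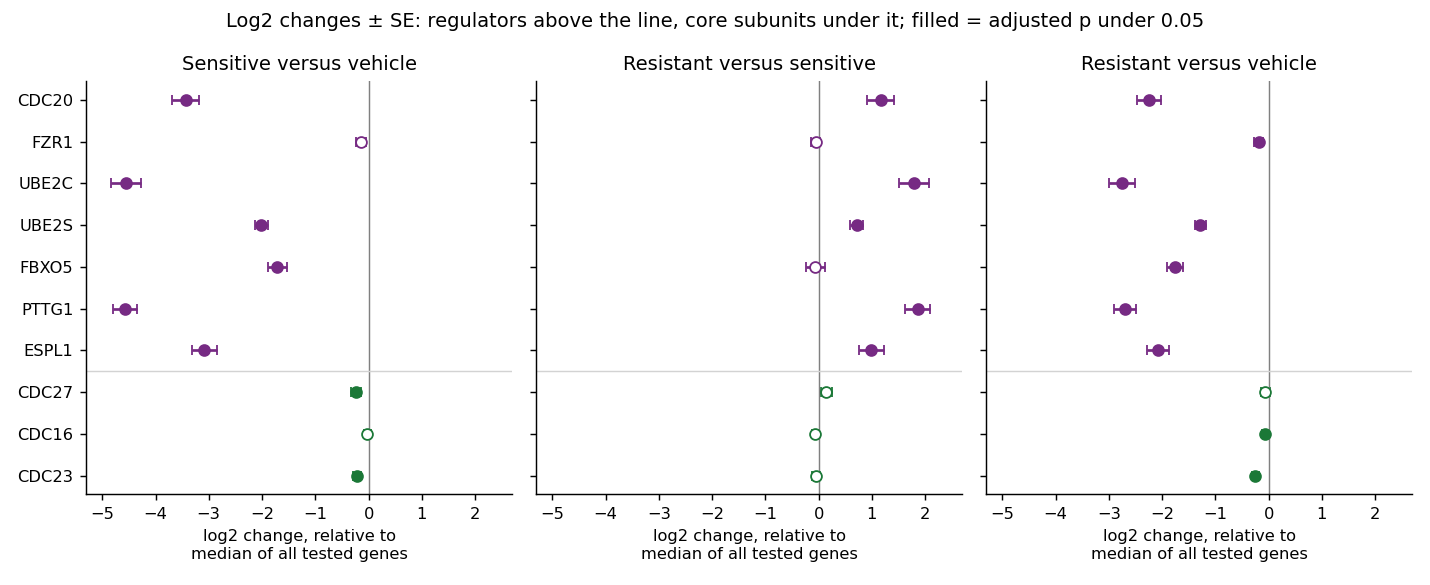
Log2 change of each gene (points) with its SE (whiskers), relative to the median of all tested genes, for sensitive versus vehicle, resistant versus sensitive and resistant versus vehicle tumors; filled points had an adjusted p under 0.05. CDC20, UBE2C, UBE2S, PTTG1 and ESPL1 are left of 0 in the outer panels and right of 0 in the middle one, FBXO5 sits near 0 in the middle one, and FZR1 and the core subunits lie within 0.25 of 0 throughout.

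The 11 further subunits of the APC/C, all tested, also changed little. In sensitive versus vehicle tumors their changes ran from -0.23 to 0.11 (median -0.14), and 2 were called lower: ANAPC15, a small subunit that helps the complex shed the spindle checkpoint inhibitor, at -0.23 ± 0.08 (limma adjusted p = 0.0156), and ANAPC11, the catalytic RING subunit, at -0.19 ± 0.07 (adjusted p = 0.0211). Neither scaling alternative called any of them lower, and 1 was called without mouse 6-5 or 6-6. ANAPC11 had 190.0 TPM in resistant, 168 TPM in sensitive and 202 TPM in vehicle tumors on average. In resistant versus sensitive tumors 2 subunits were called higher, the scaffold subunit ANAPC5 (0.31 ± 0.06, adjusted p = 0.0111) and ANAPC15 (0.34 ± 0.08, adjusted p = 0.0157), which became 4 with median-of-ratios scaling or weights per mouse and 1 without mouse 6-4 or 6-5. In resistant versus vehicle tumors the repeat subunit ANAPC7 was lower (-0.27 ± 0.07, adjusted p = 7.83e-04), and the median of the list was 0.06. ANAPC5 changed by as much the other way there, 0.27 ± 0.05, but was not called (limma adjusted p = 0.0604). That p was fitted before the median change of all genes, -0.14, was taken off. Of all tested genes, 12.6% were called lower in sensitive versus vehicle and 9.56% higher in resistant versus sensitive tumors. The share called lower in resistant versus vehicle tumors was 32.5%.

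The balance between members that act on the same step was compared as the difference of their log2(TPM + 1) values in each mouse, with an exact two-sided permutation test over mice. In all, 12 such tests were made, and their p-values were adjusted over all 12; the smallest p that 3 against 5 mice can give is 0.0357, and 5 against 5 mice can give 0.00794. For the activators, the ratio of CDC20 to FZR1 in TPM was 0.425 to 0.638 in resistant, 0.118 to 0.269 in sensitive and 1.57 to 2.84 in vehicle tumors, so FZR1 transcripts outnumbered those of CDC20 in every treated mouse and in no vehicle mouse. The mean log2 ratio was -0.97 ± 0.21 in resistant, -2.17 ± 0.44 in sensitive and 1.08 ± 0.36 in vehicle tumors (SD, n = 5, 3 and 5). Its 3 differences each reached the smallest p (exact permutation, adjusted p = 0.0390 for sensitive versus vehicle and for resistant versus sensitive, 0.0238 for resistant versus vehicle). For CDC20 over FZR1 and the 3 pairs that follow, whichever of the 13 mice was left out, the calls that involve sensitive tumors ended (adjusted p = 0.0536 to 0.104) and those between resistant and vehicle tumors held (highest adjusted p = 0.0476).

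UBE2C was at 0.197 to 0.383 of the level of UBE2S in resistant tumors, at 0.0772 to 0.193 in sensitive tumors and at 0.711 to 0.888 in vehicle tumors. These ranges did not overlap, and each of the 3 differences in log2 ratio (-2.53 between sensitive and vehicle, 1.06 between resistant and sensitive, -1.47 between resistant and vehicle tumors) had the smallest p of the design (exact permutation, adjusted p = 0.0390, 0.0390 and 0.0238). With the B libraries alone the resistant versus sensitive difference was 0.85 (adjusted p = 0.0857). Securin transcripts exceeded those of separase in every mouse, by 4.49 to 9.74 times in resistant, 3.19 to 6.11 times in sensitive and 6.84 to 9.76 times in vehicle tumors. On the log2 scale with 1 added, PTTG1 over ESPL1 averaged 2.35 in resistant, 1.49 in sensitive and 2.97 in vehicle tumors, and its differences were -1.47 between sensitive and vehicle, 0.85 between resistant and sensitive and -0.62 between resistant and vehicle tumors (exact permutation, adjusted p = 0.0390, 0.0390 and 0.0238). With an added 0.1 the first was -0.89 (adjusted p = 0.0476), and the last 2 were no longer called, at 0.56 (adjusted p = 0.195) and -0.33 (adjusted p = 0.190), and with B libraries alone the resistant versus sensitive difference was 0.77 (adjusted p = 0.117).

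FBXO5 and the activator it restrains, FZR1, gave the same ratio in both treated groups. FBXO5 was at 0.110 to 0.233 of the level of FZR1 in resistant, 0.126 to 0.194 in sensitive and 0.486 to 0.680 in vehicle tumors. The log2 ratio differed by -1.57 between resistant and vehicle tumors and by -1.56 between sensitive and vehicle tumors (exact permutation, adjusted p = 0.0238 and 0.0390). Resistant and sensitive tumors overlapped, with means of -2.29 ± 0.28 in resistant and -2.29 ± 0.28 in sensitive tumors and an exact permutation p of 1. Set against CDC20 instead, a ratio chosen after the values were seen and not tested, FBXO5 stood at 0.242 to 0.525 in resistant, 0.681 to 1.56 in sensitive and 0.223 to 0.328 in vehicle tumors.

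**Figure D3:**
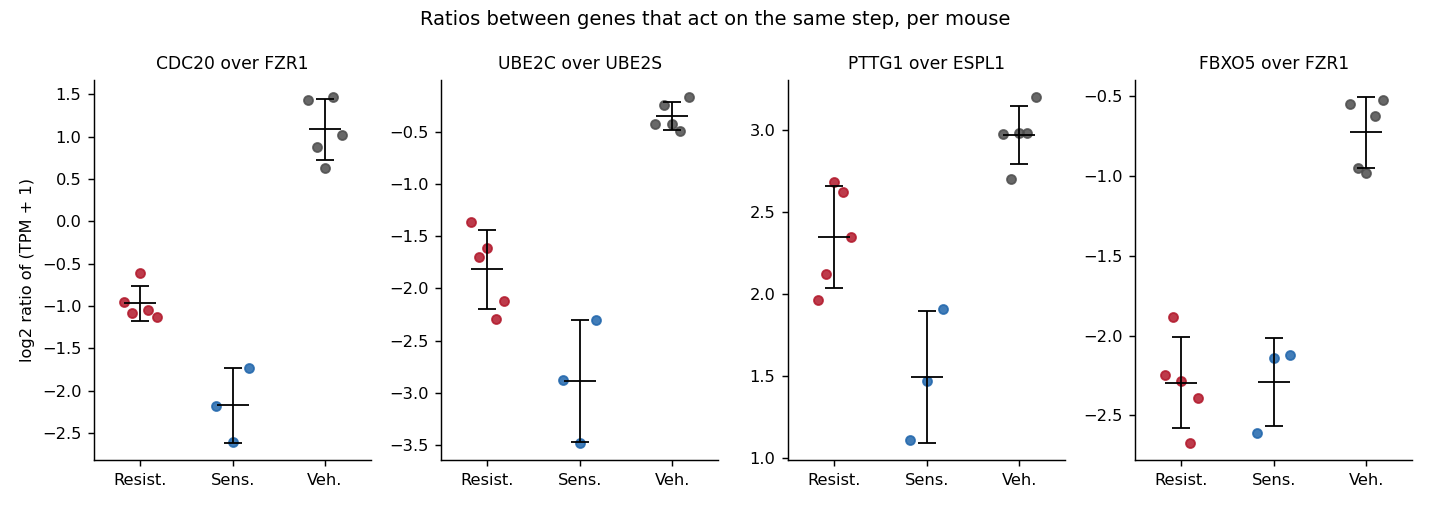
Log2 ratio of (TPM + 1) for 4 pairs of genes in each mouse (points), with the group mean and SD, in resistant, sensitive and vehicle tumors; the vertical axes differ and do not start at 0. The first 3 pairs are lowest in sensitive tumors and intermediate in resistant tumors, and FBXO5 over FZR1 is alike in both treated groups.

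The 5 resistant tumors differed among themselves most in ESPL1, FBXO5, UBE2C, PTTG1 and CDC20. From the highest to the lowest resistant mouse, ESPL1 varied by 3.44 times, FBXO5 by 2.21 times, UBE2C by 2.13 times and CDC20 by 1.88 times, and PTTG1 lay between these last 2. FZR1, at 1.25 times, and UBE2S were as even across the resistant mice as the core subunits CDC27 (1.23 times) and CDC16 (1.12 times), and CDC23 varied by 1.08 times. Mouse 9-7 was among the highest 2 resistant mice for all 7 regulators and mouse 9-3 for 5 of them, while mice 9-8 and 9-9 were the lowest 2 for all 7. The order was different for the core subunits, where mouse 9-9 was among the highest 2 for all 3. Genes of 1 tumor share its library and its dividing cells, so the members are not independent views of this order.

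**Figure D4:**
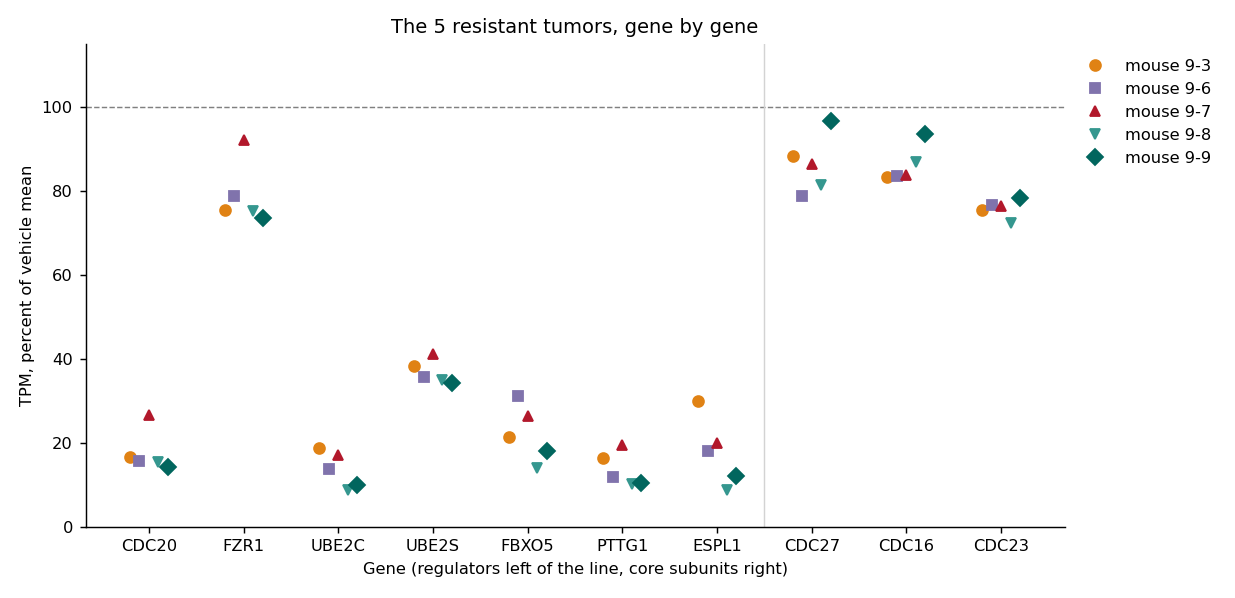
TPM in each of the 5 resistant mice as a percent of the vehicle mean (dashed line at 100%), with 1 symbol per mouse; regulators are left of the vertical line and core subunits right of it. Mouse 9-7 (upward triangles) is high and mice 9-8 and 9-9 low among the regulators, and every point is under the vehicle mean.

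Across the 13 mice, the tested genes whose log2(TPM + 1) values were most like those of CDC20 were FAM64A, PLK1 and CCNB2 (Pearson r = 0.991 for each). Those most like UBE2C were KIFC1 (0.998), ANLN (0.997) and FAM64A (0.996), and those most like PTTG1 were PLK1 (0.996), KIF2C (0.996) and ANLN (0.995). PLK1 is a mitotic kinase, CCNB2 a B-type cyclin, KIFC1 and KIF2C are spindle kinesins and ANLN acts in cytokinesis. FZR1 had other neighbors, GNA11 (0.943), VPS33B (0.942) and CGN (0.941), and CDC27 had UBE2L3 (0.925), FMNL3 (0.924) and HMGN1 (0.919). The mice share their 3 group levels, so these values are a description with no test.

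Beyond the members, the other substrates of the APC/C moved with the cycling regulators. Of 24 such genes, 23 were called lower in sensitive than in vehicle tumors, with a median change of -3.41, where the median of all genes is 0. The strongest by adjusted p were AURKA (-2.64 ± 0.08), HMMR (-4.02 ± 0.16), CCNB1 (-2.80 ± 0.12) and PLK1 (-4.33 ± 0.20), with limma adjusted p-values of 2.27e-10, 1.91e-09, 3.40e-09 and 7.02e-09. AURKA and PLK1 are mitotic kinases, HMMR a spindle protein and CCNB1 cyclin B1, whose destruction ends mitosis. SKP2, a subunit of another ubiquitin ligase that FZR1 restrains, was not called (-0.26 ± 0.15, adjusted p = 0.140). In resistant versus sensitive tumors 22 were higher, with a median change of 1.30. CKAP2, a spindle protein, was not called (0.08, adjusted p = 0.841), and SKP2 was lower (-0.62 ± 0.15, adjusted p = 0.00749), at 9.33 TPM in resistant, 15.2 TPM in sensitive and 19.6 TPM in vehicle tumors. In resistant versus vehicle tumors 23 were lower, with a median of -1.97, and the exception was TK1, thymidine kinase, at 68.8 TPM in resistant and 86.8 TPM in vehicle tumors (-0.30, adjusted p = 0.210). Among all tested genes, 12.6% were lower at 3 days, 9.56% higher in resistant versus sensitive and 32.5% lower in resistant versus vehicle tumors.

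Genes of the checkpoint that acts on CDC20 were listed with other inhibitors of the complex, 9 in all, and not all of them inhibit it. Among the 9, FBXO43 (at most 1.09 TPM) and USP44 (at most 0.0850 TPM) were too low to test. Of the other 7, 6 were lower in sensitive than in vehicle tumors, among them BUB1 (-2.95 ± 0.16, limma adjusted p = 1.97e-08), TTK (-2.38 ± 0.19, adjusted p = 5.64e-07), BUB1B (-2.69 ± 0.22, adjusted p = 1.14e-06) and MAD2L1 (-1.91 ± 0.26, adjusted p = 1.37e-04). BUB1 and TTK are checkpoint kinases, and BUB1B and MAD2L1 are parts of the complex that binds CDC20. BUB1, TTK, BUB1B, MAD2L1, BUB3 and TRIP13 were all called higher in resistant than in sensitive tumors, and MAD2L1BP was called in neither comparison. Against vehicle tumors 6 were lower in resistant tumors, and TRIP13, the ATPase that recycles MAD2L1, was not called, at 20.9 TPM in resistant, 8.73 TPM in sensitive and 24.1 TPM in vehicle tumors (resistant versus vehicle -0.10, adjusted p = 0.359). The 4 other ubiquitin enzymes that can serve the complex changed by no more than 0.23 in any comparison. Of these UBE2L3 was called lower in sensitive versus vehicle tumors (-0.20, adjusted p = 0.0199), and UBE2D3 (-0.10, adjusted p = 0.00361) and UBE2L3 (-0.06, adjusted p = 0.0191) in resistant versus vehicle tumors, and with either scaling alternative none was. The first call was lost without mouse 6-5 or 6-6, and 1 of the other 2 was lost without mouse 9-6. Beside the counts of both lists, 12.6% of all tested genes were called lower in sensitive versus vehicle tumors. For resistant tumors, 9.56% of all genes were called higher than in sensitive and 32.5% lower than in vehicle tumors.

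Cohesin, the ring that separase cuts, was followed through 15 genes. RAD21, the subunit that separase cleaves, had 70.0 TPM in resistant, 66.5 TPM in sensitive and 136 TPM in vehicle tumors on average. It changed by -0.95 ± 0.10 in sensitive versus vehicle (limma adjusted p = 4.88e-06) and by -0.82 ± 0.08 in resistant versus vehicle tumors (adjusted p = 2.53e-06), and was not called between resistant and sensitive tumors (0.11 ± 0.10, adjusted p = 0.652). In sensitive versus vehicle tumors 8 of the 15 were lower (5 without mouse 6-5), with the largest changes in ESCO2 (-2.65), which acetylates cohesin in S phase, and in the shugoshins SGOL1 (-2.13) and SGOL2 (-1.61), which shield cohesin at centromeres. These 3 were the ones called higher in resistant than in sensitive tumors (0.93, 0.96 and 0.52), and without mouse 6-5 only 1 of the 15 was. ESCO2 averaged 1.29 TPM in resistant, 0.21 TPM in sensitive and 7.02 TPM in vehicle tumors. For SGOL1 the means were 2.57, 0.878 and 7.75 TPM in the same order. Both sensitive means are under 1 TPM, so the added 1 weighs on these changes. Another 6, among them the ring subunit SMC3 (-0.25 ± 0.08, adjusted p = 0.0195) and the release factor WAPAL (-0.28 ± 0.09, adjusted p = 0.0210), were lower in resistant than in sensitive tumors, but none without mouse 6-4 or with A libraries alone, 1 without mouse 6-5 and 3 without mouse 9-8. In resistant versus vehicle tumors 12 of 15 were lower, against 32.5% of all tested genes, and PDS5B, HDAC8 and MAU2 were not called (adjusted p = 0.0543, 0.0879 and 0.274). The share of all genes called lower in sensitive versus vehicle tumors was 12.6%. Between resistant and sensitive tumors, 9.56% of all genes were called higher and 11.6% lower.

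**Figure D5:**
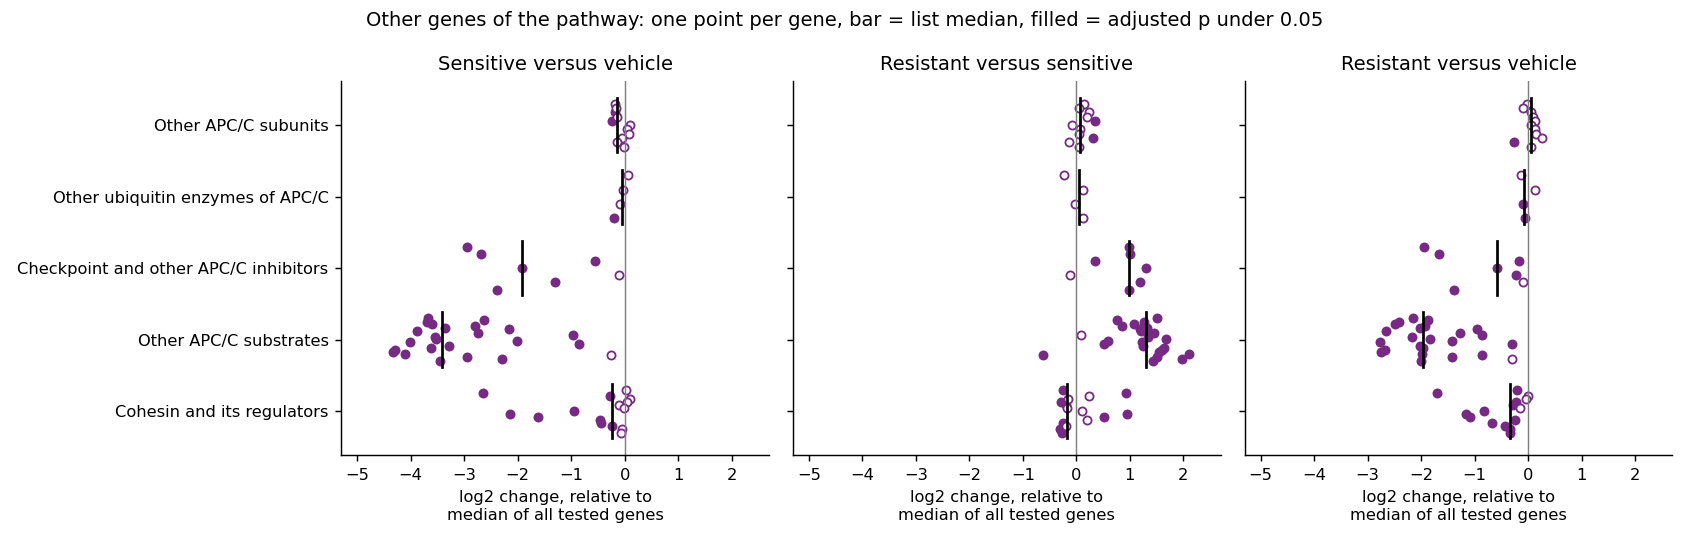
Log2 change of each other gene of the pathway (1 point per gene) relative to the median of all tested genes, by list, with the list median as a bar and filled points for an adjusted p under 0.05, in sensitive versus vehicle, resistant versus sensitive and resistant versus vehicle tumors. Subunits and other ubiquitin enzymes lie near 0. The list of checkpoint genes and other inhibitors, and that of substrates, spread to the left at 3 days (substrate median -3.41). Both spread to the right in resistant versus sensitive tumors (substrate median 1.30).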

How the data were processed

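Bulk RNA of 13 xenografts was sequenced as 26 libraries. The deposited table holds TPM made by the authors, with sums of 999847 to 999887 per library; depth is unknown because it gives no counts, so no counting interval is given. FastQC, STAR, HTSeq, RSEM and the builds GRCh38 and GRCm38 are listed in the submitters' processing notes; roles, versions and how mouse reads were set aside are not given in the sources used here. A row named unknown was left out.

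Libraries A and B were averaged as log2(TPM + 1), and the mouse was the replicate. Genes with a mean of at least 1 TPM in at least 3 mice (14079) entered 1 limma-trend model over the 3 groups (limma 3.58.1, R 4.3.3), two-sided, with Benjamini-Hochberg adjustment over all genes tested in a comparison and a threshold of 0.05. Ratios were tested by exact permutation (SciPy 1.17.1). Alternatives were a pseudocount of 0.1, a filter at 5 TPM or none, median-of-ratios scaling, quantile normalization, A or B libraries alone, the compared groups alone, weights per mouse and leaving out each mouse. A further alternative, called the replicate block, fitted all 26 libraries with the mouse as block and the letter as a covariate. On simulated data the model recovered 92% of genes changed by 1 log2 unit in sensitive versus vehicle, 92% in resistant versus sensitive and 93% in resistant versus vehicle (100 genes each, in fits of 14079). The changed genes were drawn from those above about 5 TPM in vehicle tumors. Recovery of lower genes, or of changes under 1 log2 unit, was not simulated.

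The members and the pathway and marker lists were chosen with earlier results of these data known. Named are all members, up to 4 genes of a list by adjusted p and a list's uncalled genes where at most 5 remain. Also named are the 3 genes outside the members that were most like a member. ESCO2, the shugoshins and TPM levels of single list genes were picked after their values were seen. WAPL, SGO1 and SGO2 were matched as WAPAL, SGOL1 and SGOL2. Gene positions are from GENCODE 29 on GRCh38. Processed pseudogenes of CDC27, UBE2C, UBE2S and CDC20 could share reads with them.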

Additional observations from a re-analysis of the deposited data

Results flagged for a closer look

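Each of the 20 member and group combinations with 5 mice was checked for a mouse standing apart, by the gap to its nearest neighbor over the range of the group, and 2 passed the limit of 0.71; chance alone passes about 1 in 20 such checks. CDC20 in resistant mouse 9-7 was 14.1 TPM, with the other resistant mice at 7.51 to 8.89 TPM. FZR1 in the same mouse was 22.1 TPM, with the others at 17.7 to 18.9 TPM. By this check no other member stood apart. The 2 values come from 1 tumor and share its libraries, so they are not independent, and no trait of the activators is read from them.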

How the results depend on the processing

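Of 690 member changes recomputed under 23 alternatives in each comparison, 656 stayed called in the same direction or stayed uncalled. A further 29 lost and 5 gained a call, and no call reversed. Uncalled changes near 0 could change sign, as did FBXO5 in resistant versus sensitive tumors (-0.20 to 0.06). Of 36 ratio differences under the pseudocount and the A or B libraries, 32 likewise stayed called or uncalled and 4 lost a call. The uncalled FBXO5 over FZR1 difference between resistant and sensitive tumors changed sign with A libraries alone (0.07). CDC20, UBE2C, UBE2S, FBXO5, PTTG1 and ESPL1 were called in sensitive versus vehicle and in resistant versus vehicle tumors under all of these alternatives. The 2 core subunits called lower in sensitive versus vehicle tumors became 1 with no filter, with B libraries alone and with the replicate block, and 0 with median-of-ratios scaling, quantile normalization, A libraries alone and the 2 compared groups alone, and leaving out a mouse gave 0 to 2. The 2 called lower in resistant versus vehicle tumors became 1 with either scaling. The 5 members, all regulators, called higher in resistant versus sensitive tumors numbered 3 to 5 when a mouse was left out. The replicate block gave 7, 5 and 9 members called in sensitive versus vehicle, resistant versus sensitive and resistant versus vehicle tumors, against 8, 5 and 9. Library letters did not pair mice: differences between A and B correlated at -0.11 to 0.05 between mice of different groups, and 0 of 55 pairs passed 0.1. The causes were not tested. With any 1 mouse left out, all 156 ratio differences moved by less than 1 SD, but the calls of ratios that involve sensitive tumors ended. Fewer mice raise the smallest p an exact test can give in the comparisons that held that mouse. Where sensitive tumors and the group compared with them kept all their mice, the adjustment over all 12 tests still moved the adjusted p past the threshold. The 3 sensitive mice, low ESPL1 levels near 1 TPM and the unknown depth limit the precision.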
